A study of Homo sapiens with 24 samples.

Results

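TMEM64, LRRN1, GRB10 and CCDC28A are 4 protein-coding genes, of 20992 genes named on the 24 h arrays and 22439 on the 48 h arrays, whose transcripts stood out in size or in time course after LNCaP cells were given an siRNA against the long non-coding RNA TAPIR-1. They were picked from the arrays described here, so everything measured after that siRNA, and its contrast with the TAPIR-2 siRNA, is given below as a description without a test. The set was also named for shifts mainly by the TAPIR-1 siRNA. A lack of calls after the TAPIR-2 siRNA can therefore follow from the choice, and its tests are to be read with that limit. Every probe whose RefSeq accession maps to one of these genes was included, which gave 6 probes on each array version, out of 50599 probes on the 24 h arrays and 58201 on the 48 h arrays. CCDC28A and LRRN1 have 1 probe each (A_23_P31085 and A_24_P240187), GRB10 has A_23_P122863 and A_24_P235266, and TMEM64 has A_24_P171058 and A_23_P378690.

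LNCaP is an established androgen-responsive prostate cancer line grown from a lymph node metastasis. Cells were electroporated with a scrambled duplex (si-SCRL), a duplex against TAPIR-1 (si-A1) or a duplex against TAPIR-2 (si-A2), and RNA was taken at 24 h and at 48 h, with 4 replicates per siRNA and time point. All 3 groups went through the same electroporation, no untransfected cells were measured, and each target was hit with 1 duplex, so the loss of a TAPIR transcript and any other action of its duplex cannot be told apart. The 24 h and 48 h RNA went onto separate Agilent array designs, so time and array version cannot be told apart either. Since the RNA came from whole cultures, a lower value can reflect fewer cells that carry a transcript as well as less of it per cell.

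The median processed intensity of an array lay between 24.4 and 57.2 at 24 h and between 20.4 and 32.2 on 11 arrays at 48 h. The remaining 48 h array, si-A2 replicate 2, had a median of 13.9 and was left out of the fits, as the study had done. No probe of TAPIR-1 could be matched. The TAPIR-2 probe A_19_P00318461 was lower by 0.98 on the log2 scale after si-A2 at 24 h (log2 change −0.98, not tested because the probe varied too little over all arrays) and differed by 0.23 at 48 h (adjusted p = 0.718), so on the 48 h arrays this probe gave no check of the labels. The second TAPIR-2 probe, present at 48 h only, was not well above background on any of the 11 arrays in the fit. All 8 markers of prostate luminal cells, among them KLK2 and KLK3, were above the background threshold. Of 12 markers of basal, endothelial, fibroblast and immune cells, 10 passed it. Among all probes 44849 of 50599 passed it at 24 h and 45200 of 58201 at 48 h, so passing it does not tell cell types apart. None of the 10 was called in any contrast (unadjusted limma p under 0.05 for 0 of them at 24 h and 3 at 48 h in the si-A1 contrasts, and for 1 and 2 in the si-A2 contrasts). Of all genes, 0.443% to 5.82% were called in these contrasts.

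The 4 genes have little in common by function. GRB10 encodes an SH2-domain adaptor that binds the activated insulin and IGF1 receptors and dampens their signal, is phosphorylated by mTORC1, and is imprinted in some tissues. LRRN1 encodes a neuronal transmembrane protein with leucine-rich repeats, known in neuroblastoma as a MYCN-linked gene. TMEM64 encodes a multipass membrane protein of the VTT-domain family that interacts with the calcium pump SERCA2 in osteoclasts. CCDC28A encodes a coiled-coil protein of largely unknown role that has been found fused to NUP98 in leukaemia.

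The 4 genes lie on different chromosomes. On GRCh38.p14 LRRN1 is at chr3:3799431-3849834, CCDC28A at chr6:138773769-138793319 and GRB10 at chr7:50590068-50793453. The 250 bases before the RefSeq start are printed for these 3 to show what kind of promoter each transcript starts from (RefSeq, GRCh38.p14, 5′ to 3′ on the coding strand). Capitals mark the GC box GGGCGG on either strand, the core of SP-family binding sites.
LRRN1, plus strand, chr3:3799181-3799430: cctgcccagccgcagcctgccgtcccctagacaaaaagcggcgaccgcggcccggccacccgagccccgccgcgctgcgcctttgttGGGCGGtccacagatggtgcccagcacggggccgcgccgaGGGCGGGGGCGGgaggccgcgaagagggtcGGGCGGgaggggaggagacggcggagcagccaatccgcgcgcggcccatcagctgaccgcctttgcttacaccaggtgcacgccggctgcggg
GRB10, minus strand, chr7:50793454-50793703, the outermost of 5 listed starts: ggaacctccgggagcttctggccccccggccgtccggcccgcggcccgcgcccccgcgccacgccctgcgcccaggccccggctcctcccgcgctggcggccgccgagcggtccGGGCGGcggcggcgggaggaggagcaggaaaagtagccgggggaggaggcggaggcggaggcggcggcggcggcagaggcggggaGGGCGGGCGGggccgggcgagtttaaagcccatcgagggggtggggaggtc
CCDC28A, plus strand, chr6:138773519-138773768: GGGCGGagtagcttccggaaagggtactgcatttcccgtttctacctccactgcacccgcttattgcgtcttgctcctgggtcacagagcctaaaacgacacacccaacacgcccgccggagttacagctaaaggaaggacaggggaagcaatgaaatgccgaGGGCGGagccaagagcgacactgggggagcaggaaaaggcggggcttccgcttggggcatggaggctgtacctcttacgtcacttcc

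The LRRN1 window held 4 GC boxes, 2 of them side by side, the GRB10 window 3, of which 2 overlap, and the CCDC28A window 2. A GC box occurs in 42.6% of the 35116 RefSeq windows of this length. G and C made up 75.6% of the LRRN1 window, 81.6% of the GRB10 window and 58.8% of the CCDC28A window, against a median of 58.0% over all windows. A CCAAT box (CCAAT, either strand, in 32.0% of all windows) was present once before LRRN1. No TATA box (TATAAA, in 10.7%), E-box (CACGTG, in 6.34%) or E2F core (GCGGGAA, in 5.52%) was found in these 3 windows.

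**Figure D1:**
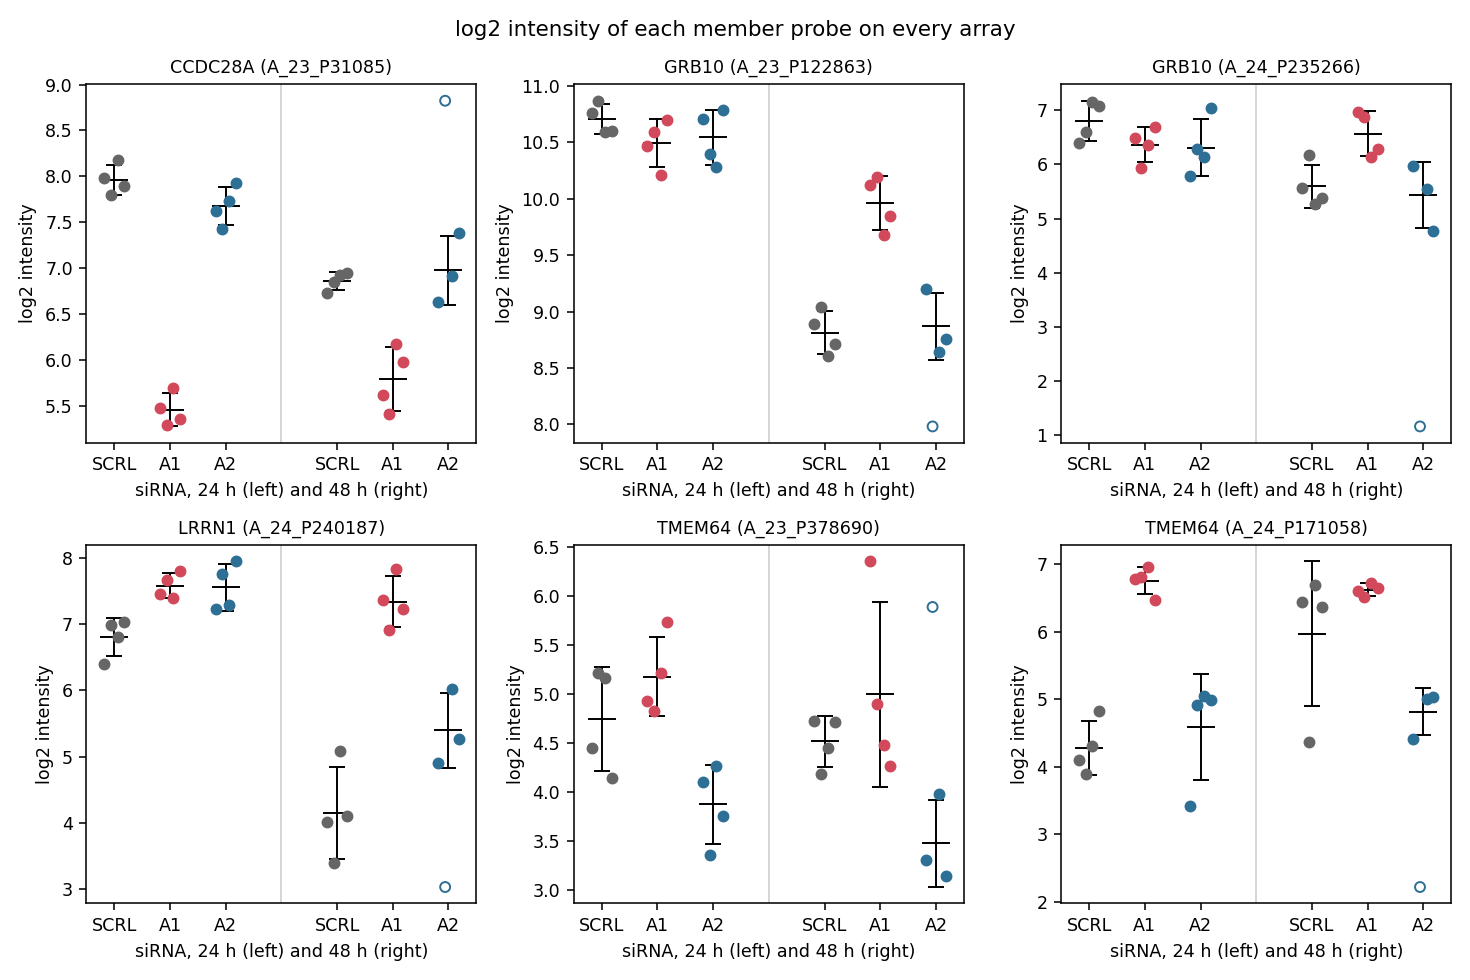
Each point is the log2 intensity (vertical axis) of a member probe on 1 array, by siRNA at 24 h (left of the grey line) and 48 h (right), with the mean and SD of each group in black. The open circle is 48 h si-A2 replicate 2, the dim array that was left out. After si-A1 CCDC28A is low and LRRN1 is above si-SCRL at both times. GRB10 is higher at 48 h, with an overlap on A_24_P235266, and only 1 of the 2 TMEM64 probes is high at 24 h.

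CCDC28A was lower after si-A1 at both time points and close to the control after si-A2. At 24 h the log2 intensities were 7.98, 7.79, 8.18 and 7.90 on the si-SCRL arrays, 5.47, 5.29, 5.70 and 5.36 on the si-A1 arrays, and 7.62, 7.43, 7.73 and 7.93 on the si-A2 arrays. Every si-A1 array lay below every other array of that time point. The log2 change after si-A1 was −2.51 ± 0.23 (SE), a level 5.68-fold lower, and it was −2.50 on one slide and −2.51 on the other. At 48 h the values were 6.73, 6.86, 6.92 and 6.94 after si-SCRL, 5.62, 5.41, 6.17 and 5.98 after si-A1, and 6.63, 6.92 and 7.38 after si-A2. The si-A1 group was again below both other groups without overlap, by −1.07 ± 0.17 against si-SCRL, with −1.28 and −0.86 on the slides. With another background correction, normexp with a constant of 50 added to every intensity, the si-A1 changes were −1.51 at 24 h and −0.62 at 48 h. After si-A2 the limma test gave −0.28 at 24 h (adjusted p = 0.679, 95% confidence interval −0.78 to 0.22) and 0.05 at 48 h (adjusted p = 0.93, interval −0.36 to 0.46).

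LRRN1 showed the highest si-A1 change of all 18905 probes tested at 48 h, and at 24 h it was shifted about equally after both siRNAs, so its label as a gene of the TAPIR-1 siRNA fits the later time point only. At 24 h the values were 6.40, 6.98, 6.81 and 7.04 after si-SCRL, 7.46, 7.67, 7.39 and 7.80 after si-A1, and 7.23, 7.75, 7.29 and 7.95 after si-A2. Both siRNA groups were above the control without overlap, by 0.77 ± 0.27 for si-A1 and 0.75 ± 0.27 for si-A2, and they overlapped each other. The si-A2 change did not pass the test (unadjusted p = 0.0159, adjusted p = 0.201 by limma).

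At 48 h the LRRN1 signal of control cells was low. It was 4.01, 3.39, 5.08 and 4.11 on the si-SCRL arrays, of which 3 of 4 were rated well above background, 7.36, 6.91, 7.84 and 7.23 after si-A1, and 4.90, 6.02 and 5.26 after si-A2. The 3 groups were thus ordered si-A1 above si-A2 above si-SCRL in their means, with no overlap between si-A1 and either other group and with si-A2 overlapping si-SCRL. The si-A1 change was 3.19 ± 0.30, a level 9.13-fold higher, and 3.44 and 2.94 within the slides. Normexp gave 1.47 for this change from a control near background. The si-A2 change was 1.14 ± 0.32 (unadjusted p = 0.00604, adjusted p = 0.0951, interval 0.41 to 1.86), and 0.31 with normexp.

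GRB10 was higher after si-A1 than in the control at 48 h, while the groups overlapped at 24 h, and its 2 probes gave the same picture. On A_23_P122863, which had 10 spots on each 24 h array with a median SD of 0.0775 between them, the 24 h values were 10.76, 10.87, 10.59 and 10.60 after si-SCRL, 10.47, 10.60, 10.21 and 10.70 after si-A1, and 10.71, 10.40, 10.29 and 10.79 after si-A2. The groups overlapped, the log2 change against the control was −0.21 for si-A1 and −0.16 for si-A2, and the probe was not tested because its interquartile range over the arrays was 0.27, under the minimum of 0.5. At 48 h the values were 8.89, 9.04, 8.61 and 8.72 after si-SCRL, 10.12, 10.19, 9.68 and 9.85 after si-A1, and 9.20, 8.64 and 8.76 after si-A2. All 4 si-A1 arrays were above all others, by 1.15 ± 0.13 against si-SCRL (a level 2.21-fold higher, 1.19 and 1.10 within the slides), while the si-A2 change was 0.12 (adjusted p = 0.727, interval −0.20 to 0.44).

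The dimmer GRB10 probe A_24_P235266 ranged from 6.40 to 7.15 after si-SCRL, from 5.93 to 6.69 after si-A1 and from 5.79 to 7.03 after si-A2 at 24 h, with log2 changes of −0.44 ± 0.28 for si-A1 and −0.50 for si-A2 (adjusted p = 0.5). At 48 h it ranged from 5.27 to 6.17, from 6.13 to 6.97 and from 4.77 to 5.97 in the same order. The si-A1 change was 0.98 ± 0.21 with si-A1 replicate 3 (6.13) just below si-SCRL replicate 2 (6.17) and no other overlap, normexp gave 0.54, and the si-A2 change was −0.05 (adjusted p = 0.945).

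TMEM64, at chr8:90621995-90646083, had the highest si-A1 change of the 16467 probes tested at 24 h, but on 1 of its 2 probes only. On A_24_P171058 the 24 h values were 4.10, 3.90, 4.31 and 4.82 after si-SCRL, 6.78, 6.81, 6.95 and 6.47 after si-A1, and 3.42, 4.92, 5.05 and 4.99 after si-A2. All si-A1 arrays were above all others, by 2.47 ± 0.34 against si-SCRL, a level 5.55-fold higher, and by 2.80 and 2.15 within the slides, but by 1.09 with normexp. The si-SCRL and si-A2 groups were near the detection limit, with 3 of 4 arrays each rated well above background. On A_23_P378690 the same si-A1 arrays read between 4.83 and 5.73 against 4.15 to 5.21 in the control, a change of 0.43 ± 0.33 with overlapping groups, and 0.05 and 0.82 within the slides.

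At 48 h the TMEM64 probe A_24_P171058 read 6.45, 4.37, 6.69 and 6.36 after si-SCRL, 6.60, 6.50, 6.72 and 6.65 after si-A1, and 4.42, 5.01 and 5.03 after si-A2. The si-A1 arrays were tightly grouped and overlapped the controls, and 1 control array, replicate 2, lay about as low as the si-A2 arrays. The si-A1 change of 0.65 ± 0.40 rested on that array and was 0.16 without it. The si-A2 change was −1.25 ± 0.43 (unadjusted p = 0.0176, adjusted p = 0.172) and −1.68 without the same control array, and −0.61 with normexp. On A_23_P378690 the si-A1 values at 48 h were 6.35, 4.90, 4.48 and 4.26 against 4.72, 4.18, 4.45 and 4.71 in the control, a change of 0.48 ± 0.41 that was 0.03 without si-A1 replicate 1. On this probe the si-A2 mean was the lowest at both times, overlapping si-SCRL at 24 h and not at 48 h, with changes of −0.87 ± 0.33 at 24 h (unadjusted p = 0.0219, adjusted p = 0.238) and of −0.98 ± 0.45 at 48 h (adjusted p = 0.292). Of the si-A2 arrays 1 of 4 and 1 of 3 were well above background, and normexp gave −0.20 and −0.26.

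**Figure D2:**
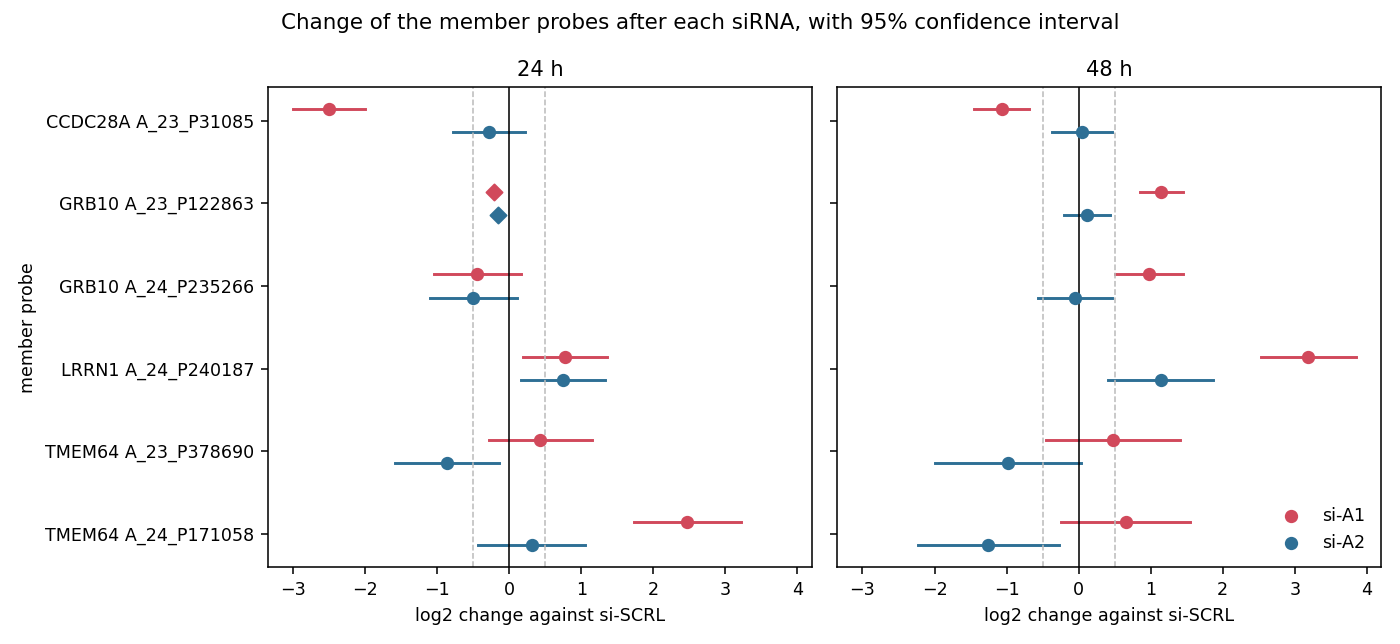
Points give the log2 change (horizontal axis) of each member probe (vertical axis) after si-A1 (red) and si-A2 (blue) against si-SCRL at 24 h and 48 h, with limma's 95% confidence interval as a line. Diamonds without a line mark the GRB10 probe not tested at 24 h, and dashed lines mark a log2 change of 0.5 either way. The si-A1 intervals of CCDC28A at both times, LRRN1 and both GRB10 probes at 48 h, and 1 TMEM64 probe at 24 h lie beyond a dashed line.

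Counted over the 6 probes, 3 were past an absolute log2 change of 0.5 after si-A1 at 24 h (2 higher, 1 lower), where 34.6% of all tested probes were, and 5 at 48 h (4 higher, 1 lower), where 45.6% were. These counts describe the choice of the genes. After si-A2, limma called 0 of the 5 member probes tested at 24 h (adjusted p from 0.201 to 0.769) and 0 of 6 at 48 h (0.0951 to 0.945), where a call takes an adjusted p under 0.01 together with an absolute log2 change of 0.5 or more. Over all probes, 1.68% were called after si-A2 at 24 h and 0.354% at 48 h, in fits that share the si-SCRL arrays with the si-A1 contrasts. Since the set was named for shifts mainly by the TAPIR-1 siRNA, the lack of si-A2 calls can follow from the choice of genes. At an unadjusted p under 0.05 there were 2 member probes at each time, LRRN1 at both, TMEM64 A_23_P378690 at 24 h and TMEM64 A_24_P171058 at 48 h.

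Set directly against each other, si-A2 and si-A1 differed past 0.5 on 3 of 6 probes at 24 h, where 33% of all tested probes did. These were CCDC28A (2.22 ± 0.23, higher after si-A2) and the TMEM64 probes A_24_P171058 (−2.16 ± 0.34) and A_23_P378690 (−1.30 ± 0.33), whereas LRRN1 differed by −0.02 ± 0.27 and the GRB10 probes by 0.05 and −0.05. At 48 h all 6 probes were past 0.5, as were 37.9% of all tested probes. CCDC28A was again higher after si-A2 (1.12 ± 0.18), and LRRN1 (−2.05 ± 0.32), GRB10 (−1.03 ± 0.14 and −1.03 ± 0.23) and TMEM64 (−1.91 ± 0.43 and −1.46 ± 0.45) were lower. On TMEM64 A_23_P378690 most si-A2 arrays were not well above background, and with the normexp correction its differences were −0.36 at 24 h and −0.30 at 48 h, under 0.5, against −0.99 and −0.89 on A_24_P171058.

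The time course of the si-A1 change differed among the genes. For this comparison all probes shared by both array versions were normalized together. The fit covered the 35792 of them above the background threshold at both times. The si-A1 change at 48 h minus that at 24 h was 2.40 ± 0.34 for LRRN1 and 1.37 ± 0.18 and 1.45 ± 0.29 for the GRB10 probes. It was 1.41 ± 0.19 for CCDC28A, whose deficit against si-SCRL was smaller at 48 h. For TMEM64 it was −1.92 ± 0.54 on A_24_P171058 and 0.02 ± 0.53 on A_23_P378690. With normexp it was 1.01 for LRRN1, 0.82 for GRB10 A_24_P235266, 0.84 for CCDC28A and −0.78 for TMEM64 A_24_P171058. Thus 5 of 6 probes were past a difference of 0.5, where 24.3% of the 35792 probes were. The same difference for si-A2 was called by limma for 0 of 6 member probes (limma adjusted p from 0.488 to 0.971) and for 0.0335% of the 35792 probes. By limma 1 member probe, TMEM64 A_24_P171058, had an unadjusted p under 0.05 (−1.58 ± 0.57, adjusted p = 0.488). With each time point normalized on its own, the si-SCRL mean differed more between the times than the si-A1 mean on each gene's brightest probe. For LRRN1 si-SCRL went from 6.81 to 4.14 and si-A1 from 7.58 to 7.34. In the same order TMEM64 went from 4.28 to 5.97 and 6.76 to 6.62, and CCDC28A from 7.96 to 6.86 and 5.46 to 5.79. GRB10 went from 10.70 to 8.81 and 10.49 to 9.96. Array version changed with time and these means come from separate normalizations, so their levels at 24 h and 48 h are not directly comparable.

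**Figure D3:**
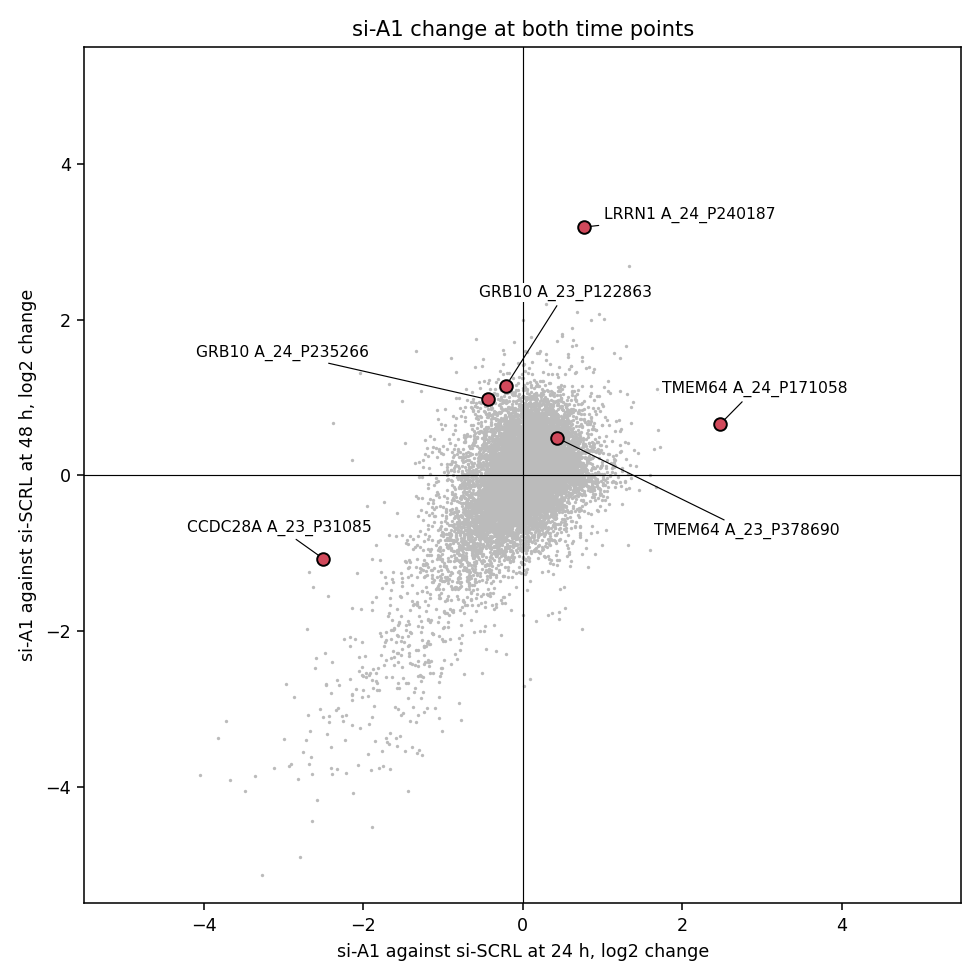
Each grey point is 1 of 17677 genes, on its brightest probe shared by both array versions, with the log2 change after si-A1 at 24 h on the horizontal and at 48 h on the vertical axis. The 6 member probes are red. LRRN1 (0.77 and 3.19) and TMEM64 A_24_P171058 (2.47 and 0.65) lie outside the cloud on different sides, CCDC28A (−2.51 and −1.07) lies at the upper edge of the genes low at both times, and TMEM64 A_23_P378690 (0.43 and 0.48) lies within the cloud.

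Over the 23 arrays of the fits, with slide effects removed and values centred on the si-SCRL mean of each time point, the brightest probes of LRRN1 and GRB10 had a Pearson r of 0.83 and those of CCDC28A and TMEM64 an r of −0.86. The other pairs lay between −0.31 and 0.14. The arrays share siRNA groups and slides, and the members were chosen for their si-A1 changes on them. These values therefore restate the choice in part, describe the patterns and carry no p. The TMEM64 values are those of A_24_P171058, and its other probe changed by 0.43 with overlapping groups after si-A1 at 24 h. Among 17676 other genes, the patterns closest to CCDC28A were those of RFX5 (r = 0.97), DESI2 (0.95) and KREMEN1 (0.95), which had changes of −1.47, −1.84 and −1.52 after si-A1 at 24 h and of −0.87, −0.90 and −0.77 at 48 h. The closest to GRB10 were PARP8 (0.92), ABCC5 (0.91) and SLC4A3 (0.91), with si-A1 changes of 0.81, 0.52 and 1.11 at 48 h. C1RL-AS1 (0.93), ZNF84 (0.92) and LRP10 (0.91) were closest to LRRN1, with 1.22, 0.76 and 0.71 at 48 h. SPRING1 (0.90), STRADB (0.89) and TIPRL (0.88) were closest to TMEM64 A_24_P171058, with 1.70, 0.52 and 0.35 at 24 h.

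The neighbours of the 4 genes gave 1 call for each siRNA at 24 h, and 3 for si-A1 and 2 for si-A2 at 48 h. On each side of each gene the 3 nearest protein-coding genes were taken, 24 in all, of which 21 were above background at 24 h and 19 at 48 h. With 1 probe per gene limma called 1.03% of all genes after si-A1 at 24 h, 0.903% after si-A2 at 24 h, 5.82% after si-A1 at 48 h and 0.443% after si-A2 at 48 h. Around GRB10 (DDC, FIGNL1, IKZF1, COBL, POM121L12 and VSTM2A), FIGNL1, an AAA ATPase of homologous recombination that lies 139718 bases from GRB10, fell after si-A1 by −1.38 at 24 h (adjusted p = 0.000582) and −1.67 at 48 h (adjusted p = 0.000584) and after si-A2 by −1.36 at 24 h (adjusted p = 0.000601), with −0.79 at 48 h (adjusted p = 0.0816). FIGNL1 and GRB10 thus differed from the control in opposite directions after si-A1 at 48 h. Around LRRN1 (CRBN, TRNT1, IL5RA, SUMF1, SETMAR and ITPR1), ITPR1, the gene of an ER calcium release channel 643514 bases away, was called at 48 h with either siRNA. It was higher by 1.05 for si-A1 (adjusted p = 0.000908) and 1.51 for si-A2 (adjusted p = 0.00348). At 24 h its changes were larger, 1.73 for si-A1 (adjusted p = 0.118) and 1.95 for si-A2 (adjusted p = 0.0843), but not called. Around TMEM64 (CALB1, DECR1, NBN, NECAB1, C8orf88 and PIP4P2), DECR1, a mitochondrial fatty acid oxidation enzyme, rose after si-A1 at 48 h (0.56, adjusted p = 0.00477). Around CCDC28A (NHSL1, HEBP2, ECT2L, REPS1, ABRACL and LOC124900217), the only call was NHSL1 after si-A2 at 48 h (adjusted p = 0.00753), on a probe well above background on 2 of 11 arrays. The gene closest to any member, ECT2L at 2768 bases from CCDC28A, was not called.

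Genes of the families and pathways around the 4 members were followed in 6 lists of 81 genes, 76 of them above background at 24 h and 72 at 48 h. Here and for the neighbours, above background means passing the background threshold. Some genes that passed it were rated well above background on no array at 24 h. None of the 76 was called after si-A1 at 24 h, where 1.03% of all genes were (median change −0.05 against 0.05 over all genes). Of the 76, 18 had an unadjusted limma p under 0.05, a count given without the share over all genes. After si-A1 at 48 h, 2 of the 72 rose and 4 fell, where 5.82% of all genes were called (median 0.02 against 0.06). GRB14, the closest relative of GRB10 in the list of adaptors and partners, rose by 0.77 (adjusted p = 0.00912). MTOR was the only call among 30 insulin and IGF1 signalling genes (−0.84, adjusted p = 0.00252). In the ER calcium list of 14 genes, ITPR1 rose, while ITPR3, another IP3 receptor (−0.90, adjusted p = 0.000206), and CANX, the chaperone calnexin (−1.23, adjusted p = 0.000806), fell.

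After si-A2 at 24 h, SHC1, an adaptor of receptor tyrosine kinases, rose (0.83, adjusted p = 0.00512) and IGF2R, the receptor that clears IGF2, fell (−0.91, adjusted p = 0.00928), with a median list change of 0.00 against 0.05 over all genes. These were 2 calls among 76 genes, where 0.903% of all genes were called. Leaving out any of the 12 arrays left 1 call or 0. At 48 h the calls after si-A2 were ITPR1 and ITPR3 (−1.22, adjusted p = 0.00348), in the same directions as after si-A1, with a median of −0.06 against 0.01. Of all genes, 0.443% were called after si-A2 at 48 h. With the replicate number as a block the si-A2 calls numbered 0 at both times, and at 48 h, where equal numbers deviated together, that fit gave 8 calls for si-A1 in place of 6.

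No other list had a call. CCDC28B, the paralog of CCDC28A, had a change of 0.49 at 48 h for si-A1 (adjusted p = 0.0094), just under the required 0.5, and of 0.42 for si-A2 (adjusted p = 0.0742). Among the VTT-domain relatives of TMEM64, TMEM41A had the largest difference (−0.90 after si-A1 at 48 h, adjusted p = 0.0166), with TMEM41B and VMP1 within 0.34 of the control in every contrast. Among 18 to 21 neuronal leucine-rich repeat genes above background, the largest was LINGO3 (1.52 after si-A1 at 48 h, adjusted p = 0.0172, well above background on 6 of 11 arrays), so no relative of LRRN1 was called. Of the luminal markers, the androgen-regulated kallikrein gene KLK2 fell after si-A1 at 48 h (−1.07, adjusted p = 0.000977), the time at which LRRN1 and GRB10 were high. Its part in those differences was not tested. KLK3, FOLH1, TMPRSS2, KRT8 and KRT18 were not called in any contrast.

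**Figure D4:**
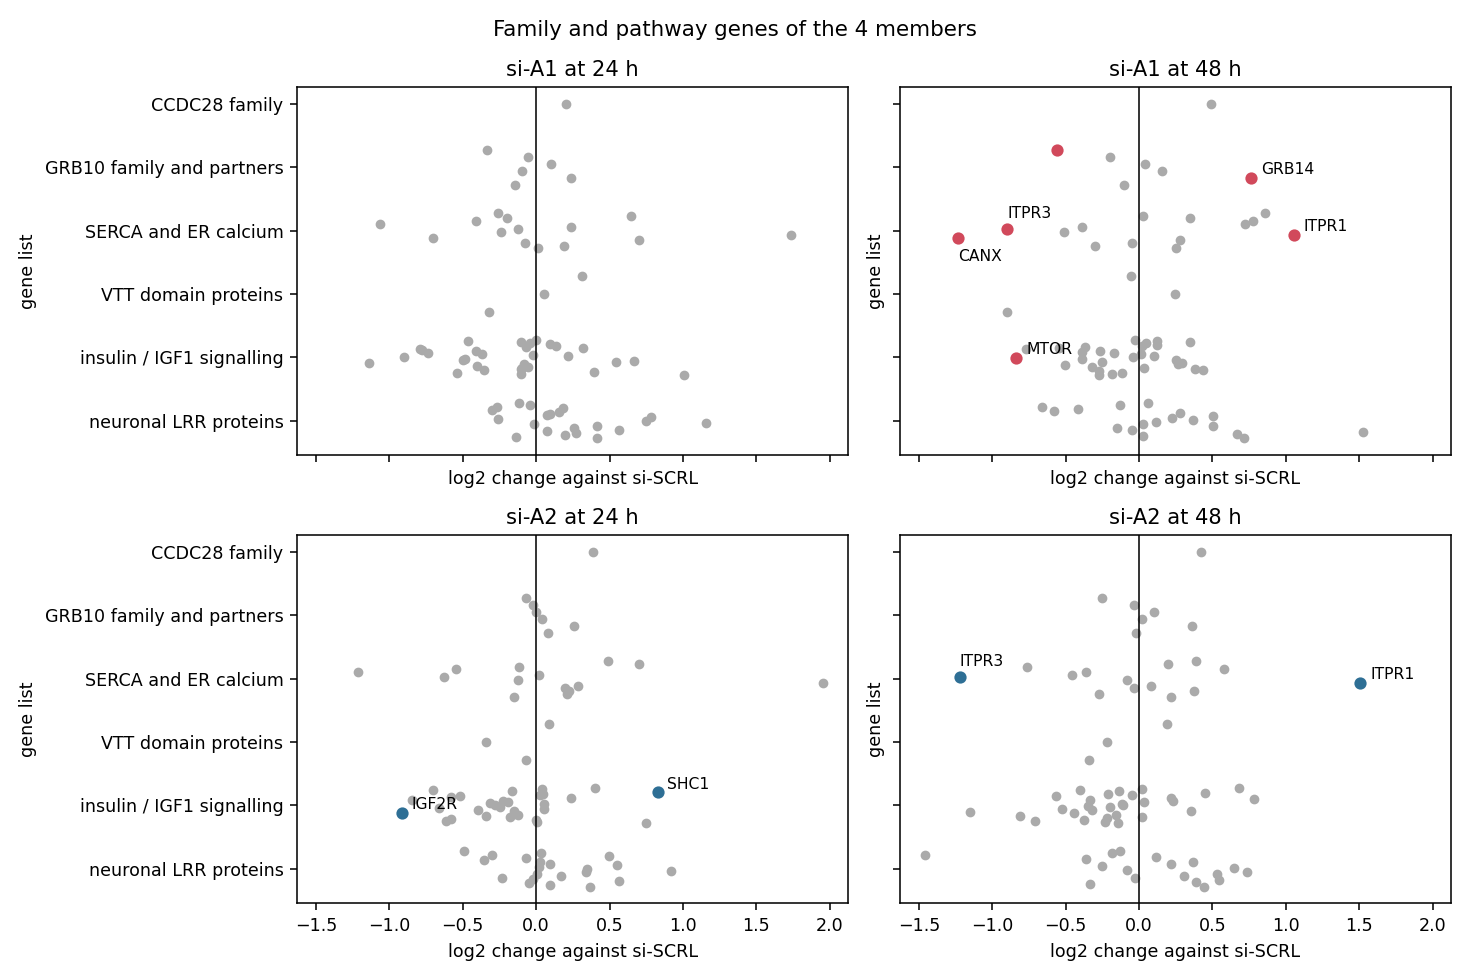
Each point is the log2 change against si-SCRL (horizontal axis) of 1 gene in the 6 family and pathway lists (vertical axis), for each siRNA and time. Grey points were not called and coloured points were, with the names of the genes given in the text. The calls number 0 and 6 after si-A1 at 24 h and 48 h, and 2 and 2 after si-A2.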

How the data were processed

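The members and lists were chosen with earlier results of these data known. The authors deposited Agilent Feature Extraction 11.5.1.1 output for each array, in which the processed intensity is linear and background-subtracted, and a table of log2 values that are the same intensities after quantile normalization, made by the authors in R 3.4.3 with limma 3.34.8. Here the log2 processed intensity was quantile-normalized per time point, flagged spots (non-uniform or population outliers) and controls were left out, and repeated spots were averaged. Probes were named through RefSeq accessions (29033 of 50599 at 24 h and 31104 of 58201 at 48 h). Tests covered probes brighter than the negative controls' mean + 3 SD on 3 or more arrays, with an interquartile range of 0.5 or more, which left 16467 and 18905 probes. limma 3.58.1 in R 4.3.3 was fitted over the 3 siRNA groups of a time point with the slide as an additive term, with Benjamini-Hochberg adjustment and a call requiring an adjusted p under 0.01 together with an absolute log2 change of 0.5 or more. Lists, neighbours and markers used the brightest probe per gene without the interquartile filter. Counts at an unadjusted p are given without the share over all genes or probes. The 24 h and 48 h effects were compared on 23 arrays normalized together, over shared probes above background at both times and without the interquartile filter. The fits were tested on simulated data.

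Named genes are the members, the TAPIR probes, each list gene called against si-SCRL or, in a list with none, the largest change, the 3 nearest protein-coding genes on each side, the 3 genes closest in pattern and the luminal markers. A few of these genes are not reported here. Replicates are stated to be biological. The number of arrays limits the precision. Each slide held 2 replicate numbers. Arrays of equal number deviated from their group means together at 48 h (r from 0.18 to 0.34 in 10 pairs, with 0.11 to 0.29 for other numbers on the same slide) and not at 24 h (−0.15 to 0.19 in 12 pairs). Alternatives were 75th percentile scaling, normexp with an offset of 50, the authors' log2 table, other slide and replicate terms, other filters, a threshold of 1, the dim array kept, flagged spots kept and each array left out.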

Additional observations from a re-analysis of the deposited data

Results flagged for a closer look

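TMEM64 A_24_P171058 had an array far from the other 3 of its group in 2 of the 30 groups of 4 arrays examined over all member probes, where chance alone marks about 1 in 20 groups. At 24 h si-A2 replicate 1 read 3.42 against 4.92 to 5.05 in the others, and at 48 h si-SCRL replicate 2 read 4.37 against 6.36 to 6.69.

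Measured from the control mean, some effects ran in opposite directions on every array, without a test of the difference. All 4 si-A1 arrays lay below the control mean at 24 h and above it at 48 h on both GRB10 probes, with differences between the effects of 1.37 on A_23_P122863 and 1.45 on A_24_P235266. TMEM64 A_23_P378690 at 24 h and A_24_P171058 at 48 h were above the control mean on all si-A1 arrays and below it on all si-A2 arrays, with si-A2 minus si-A1 differences of −1.30 and −1.91. The si-A1 groups overlapped si-SCRL in both TMEM64 cases and on both GRB10 probes at 24 h. The 48 h control mean of A_24_P171058 was lowered by si-SCRL replicate 2, and the si-A1 change was 0.16 without that array.

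On the dim 48 h array that was left out, si-A2 replicate 2, 2 member probes read above every 48 h control array. CCDC28A read 8.82 against a highest control of 6.94, and TMEM64 A_23_P378690 read 5.89 against 4.72. The dim array's values come from a normalization that includes it and the control values from one that does not. Before normalization CCDC28A read 204 against at most 146 in the controls, but TMEM64 A_23_P378690 read 23.8, within the controls' 20.5 to 27.0. The other member probes read below every control, among them TMEM64 A_24_P171058 at 2.22, not well above background.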

How the results depend on the processing

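Over the alternatives, the counts of member probes kept within 1.5 times their value, except that a threshold of 1 left 3 of the 5 probes past the fold after si-A1 at 48 h. The si-A2 counts and the si-A2 time difference stayed at 0 under every alternative run, with a lowest adjusted p of 0.0171 (TMEM64 A_24_P171058 at 48 h). Of 1200 recomputed probe changes, 1169 moved by less than the SD between replicates, 31 by more, and 0 of those past 0.5 changed sign. Part of this agreement was fixed in advance, since the alternative filters change which probes are tested and cannot move a log2 change. Normexp with an offset of 50, which adds a constant to every intensity and by construction shrinks the changes of dim probes, gave 1.47 for LRRN1 at 48 h and 1.09 for TMEM64 A_24_P171058 and −1.51 for CCDC28A at 24 h after si-A1. With the dim array kept, CCDC28A was 0.61 after si-A2 at 48 h. Leaving out single arrays gave 3 to 4 probes past the fold after si-A1 at 24 h and 4 to 6 at 48 h.

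The list calls depended more on the processing. After si-A1 at 24 h normexp gave 3 calls in place of 0. After si-A1 at 48 h there were 3 calls in place of 6 without the slide term, 2 at a threshold of 1 and 0 with the dim array kept. After si-A2 at 24 h there were 4 with normexp in place of 2, 1 with 75th percentile scaling, no slide term or the slide as a random block, and 0 with the replicate block, only the groups compared, the interquartile filter or a threshold of 1. After si-A2 at 48 h there were 5 with normexp and 4 with the well-above-background filter in place of 2, and 0 with the replicate block, only the groups compared or the dim array kept. Leaving out single arrays gave 0 to 1 calls after si-A2 at 24 h and 0 to 2 at 48 h, with 0 without any si-A2 array or without si-SCRL replicate 2, 3 or 4. The causes were not tested.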
